A study of Mus musculus with 12 samples.

Results

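The transcripts described here are non-coding host genes of small nucleolar RNAs (snoRNAs): Gas5 and the Snhg genes Snhg1, Snhg3, Snhg4, Snhg5, Snhg6, Snhg7, Snhg8, Snhg11 and Snhg12. They were taken from the count tables by gene symbol, with identical repeated entries of a symbol counted once. Of these 10 genes, 9 have an entry among the 3942 symbols counted, and Snhg11 is not analysed here. They were counted in 12 small RNA libraries from stem-like medulloblastoma cells of the mouse cerebellum, genotype Math1-Cre; SmoM2 in every library. SmoM2 is an activated form of Smoothened, the Hedgehog signal transducer, and Math1-Cre acts in cerebellar granule neuron precursors. The 4 control libraries carry sgGal4-4, a guide named for a yeast transcription factor. The 4 libraries labelled Miat carry guides named for a long non-coding RNA, sgMiat-6 in libraries 6-1 and 6-2 and sgMiat-96 in 96-1 and 96-2. The 4 labelled Mtdh carry guides named for the metadherin gene, sgMtdh-1 in 1-1 and 1-2 and sgMtdh-2 in 2-1 and 2-2. The series title speaks of Miat depletion, and the question here is how host gene counts differ between these guides. The labels do not say whether libraries of a guide are separate cultures, so the spread on which p-values rest here may be partly technical.

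A snoRNA host gene carries snoRNAs in its introns. After splicing the intron is opened and trimmed back to the snoRNA, which stays in the nucleolus and guides the chemical modification of ribosomal RNA. C/D box snoRNAs, the Snord genes, direct 2'-O-methylation, and H/ACA box snoRNAs, the Snora genes, direct pseudouridylation. The spliced exons of many host genes, Gas5 among them, are short-lived RNAs that ribosomes engage and nonsense-mediated decay removes. Gas5 is named for its accumulation in growth-arrested cells.

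Libraries held 34263 to 65240 counts in the control, 83544 to 164537 in those labelled Miat and 23318 to 154111 in those labelled Mtdh. The share of Rn45s, the ribosomal RNA precursor, was 55.2% ± 1.17 (SD, n = 4) in the control, 75.0% ± 5.95 with Miat guides and 72.1% ± 5.83 with Mtdh guides. Miat was counted 3 times in all in the control libraries, 49 and 30 times with sgMiat-6, and 1 and 0 times with sgMiat-96. The sgMiat-6 counts thus go against the label, while Mtdh, a coding gene, is not analysed here. Each control library had only 0 to 1 Miat counts, so these counts could not show a loss of Miat with either guide. Of 13 neural marker genes with an entry, 6 had counts, summing to 55 to 106 per control library, 32 to 141 in those labelled Miat and 3 to 59 in those labelled Mtdh. The 4 blood marker genes with an entry were at 0 in all libraries. The endothelial marker was at 0 in control libraries and at 0 to 3 in those of either target. Of 5 muscle marker genes with an entry, 1 had counts, at most 1 per library and only in those labelled Mtdh. The liver marker had no entry. Whether these differences play a part in the results below was not tested.

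Gas5 held nearly all of the host gene counts, 16717 of 16929, or 98.7%. The other 8 genes with an entry had 212 counts together, of which 118 belonged to Snhg8. Per kilobase of transcript, summed over libraries, Gas5 had 6545 counts and Snhg8 had 150. Snhg6 followed with 51.6 counts per kilobase, Snhg1 with 48.3 and Snhg5 with 29.7, and Snhg3, Snhg7, Snhg4 and Snhg12 had 16.02 or fewer. Among the 143 symbols with enough counts for a test, Gas5 ranked 4 by mean level and Snhg8 ranked 125. A level here is a TMM-scaled count per 1000000 counts of a library (CPM), where TMM factors adjust for the make-up of the library.

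The Gas5 entry is linked in GENCODE to a transcript of Gas5 that keeps introns, and this decides which snoRNAs its counts can hold. The gene spans chr1:161034601-161038539 on the plus strand of GRCm38. The length implied by the deposited FPKM values is 2554 bases, against 2556 for the linked transcript, which has 4 exons. Its longest exon, chr1:161035166-161037547, is 2382 bases long and contains 6 of the 9 snoRNA genes annotated inside Gas5. No snoRNA entry was found for these 6. Mir5117 is among them, and entries with miRNA names were left out of the search. Snord80, Snord47 and Gm25789 lie in the introns of that transcript, and of these Snord47 alone has an entry.

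**Figure D1:**
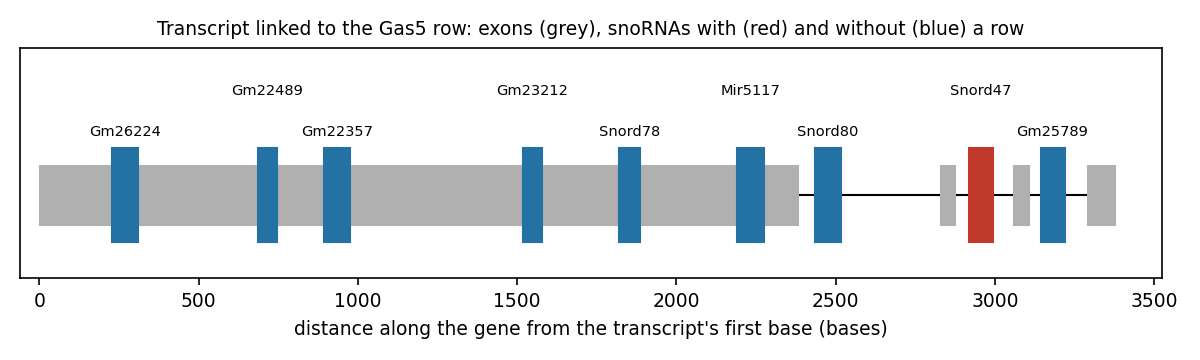
The GENCODE transcript linked to the Gas5 entry, drawn to scale in bases from the first base of the transcript. Grey boxes are its 4 exons and the line its introns. Blue boxes are snoRNA genes for which no entry was found, miRNA names being left out of the search, and the red box is Snord47, which has one. The longest exon holds 6 of the 9 snoRNA genes.

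The sequences show snoRNAs whose place decides the reading of the host counts. They are some of those lying whole within the longest Gas5 exon, Snord47 in an intron, and the snoRNA inside Snhg8. Gm22489, Gm22357 and Mir5117 lie whole within that exon too and are not printed. Capitals mark the C box TGATGA within the first 20 bases and the D box CTGA within the last 20, searched on the strand of the snoRNA. Gm26224 (chr1:161035394-161035473, plus strand) and Gm23212 (chr1:161036682-161036741, plus strand) lie in the exon and hold both boxes. Snord78 (chr1:161036984-161037049, plus strand) also lies in the exon and has the D box letters only in these windows. Snord47 (chr1:161038082-161038158, plus strand) lies in an intron of the linked transcript, and Snora24 (chr3:123507937-123508066, minus strand) is the H/ACA box snoRNA inside Snhg8, with its ACA box in capitals.
Gm26224: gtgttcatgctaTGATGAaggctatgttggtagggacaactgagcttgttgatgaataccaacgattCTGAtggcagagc
Gm23212: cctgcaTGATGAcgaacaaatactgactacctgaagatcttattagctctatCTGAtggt
Snord78: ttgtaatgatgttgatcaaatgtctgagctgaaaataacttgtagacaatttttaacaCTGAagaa
Snord47: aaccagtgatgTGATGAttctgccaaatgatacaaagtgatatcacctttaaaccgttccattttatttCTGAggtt
Snora24: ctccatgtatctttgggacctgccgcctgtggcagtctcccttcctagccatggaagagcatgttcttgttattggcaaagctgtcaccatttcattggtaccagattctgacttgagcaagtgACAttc
Of the 9 snoRNA genes inside Gas5, 7 hold both boxes in these windows and all 9 hold the D box. Of all 1507 snoRNA transcripts in the annotation, H/ACA box genes included, 20.5% hold both, 21.7% the C box and 35.4% the D box. The sequences are those of GENCODE for GRCm38.

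Where a snoRNA inside an exon had an entry of its own, its host was counted at least as often in every library. This held for 3 of 3 such pairs found with counts, of which Snhg8 with Snora24 is among the genes described here. Snhg8 had 118 counts against 81 for Snora24, with equal counts in 4 of 12 libraries. For comparison, Dancr had 92 counts against 88 for Snora26, equal in 9 libraries, and 1810032O08Rik had 931 against 920 for Snord1a, equal in 8 libraries. Of 12 pairs in which the snoRNA lies in an intron of the linked transcript, the host reached the snoRNA count in every library for 1, 1810032O08Rik with Snord1c. Gas5 reached the count of Snord47 in 11 of 12 libraries, with 16717 counts against 9460 over all libraries. Snhg12, with 2 counts in all, is the host in 4 of the 12 pairs, so low host counts weigh on this comparison. Dancr and 1810032O08Rik are non-coding hosts outside the set.

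**Figure D2:**
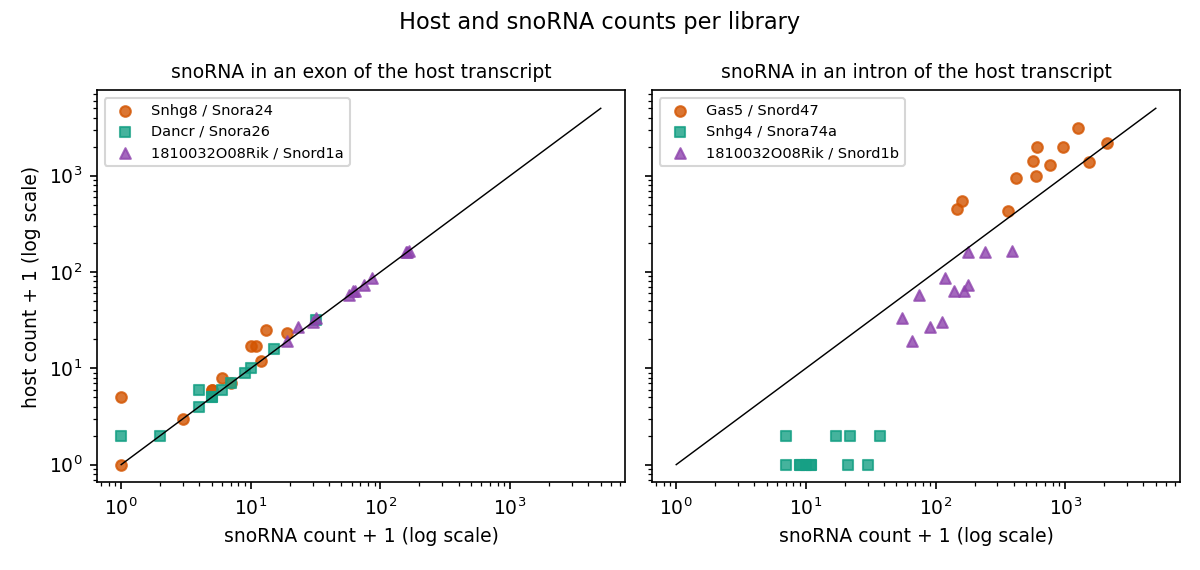
Host count against snoRNA count in each of the 12 libraries, both plus 1 on log axes, for 3 pairs with the snoRNA in an exon (left) and 3 with it in an intron (right). On the left the points lie on or above the line of equal counts. On the right Snhg4 and 1810032O08Rik with Snord1b lie below it, while Gas5 with Snord47 lies above it in 11 of the 12 libraries.

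No entry was found for the 6 exonic snoRNA genes of Gas5, with miRNA names left out of the search. The share of Gas5 counts that are snoRNA reads therefore cannot be told from the entries used here. Entries of spliced hosts leave the snoRNAs out, and there the snoRNA was usually counted more often. Snora74a, inside Snhg4, had 179 counts against 4 for its host. Snhg12 had 2 counts, against 139 for Snord99 and 116 for Snora16a inside it. Snord22 had 51 counts against 23 for its host Snhg1, and Snord87 had 62 against 21 for Snhg6. For Snhg7 the place of Snora17 and Snora43, with 45 and 41 counts against 7 for the host, was not settled by the annotation used.

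Gas5 counts were lower relative to other RNAs in the libraries labelled Miat, and the difference did not pass the test across all symbols. Gas5 was counted 981, 1274, 1431 and 1960 times in control libraries 1 to 4. In the libraries labelled Miat it was counted 2168 and 1384 times with sgMiat-6 and 951 and 430 times with sgMiat-96. In those labelled Mtdh it was counted 454 and 3151 times for sgMtdh-1, then 1983 and 550 times for sgMtdh-2. Raw counts follow the size of each library, so a share is needed to compare them.

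Of the counts outside Rn45s, Gas5 took 6.63%, 5.86%, 7.35% and 6.95% in control libraries 1 to 4, a mean of 6.70% ± 0.634 (SD, n = 4). It took 4.99% and 4.17% with sgMiat-6 and 4.00% and 3.21% with sgMiat-96, a mean of 4.09% ± 0.731 (SD, n = 4). It took 6.30% and 8.58% in the sgMtdh-1 libraries, then 6.10% and 4.90% in the sgMtdh-2 libraries, a mean of 6.47% ± 1.54 (SD, n = 4). All 4 libraries labelled Miat lay below all 4 controls, and those labelled Mtdh lay on either side of the controls. In bulk RNA, a lower share can come from fewer cells that make an RNA or from less of it per cell, which cannot be told apart. A share also depends on the other RNAs counted.

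On the TMM scale the libraries labelled Miat were again the lowest. Gas5 stood at 20898, 17470, 21087 and 22825 CPM in control libraries 1 to 4. It stood at 15881 and 13529 CPM with sgMiat-6 and at 11717 and 8795 CPM with sgMiat-96. The sgMtdh-1 libraries stood at 18430 and 26298 CPM, those of sgMtdh-2 at 21117 and 17315 CPM. The libraries labelled Miat did not overlap the controls, the lowest values being those of sgMiat-96. Of all 143 tested symbols, 30 (21%) showed no overlap between these groups, 13 of them (9.09%) with all libraries labelled Miat below the controls.

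**Figure D3:**
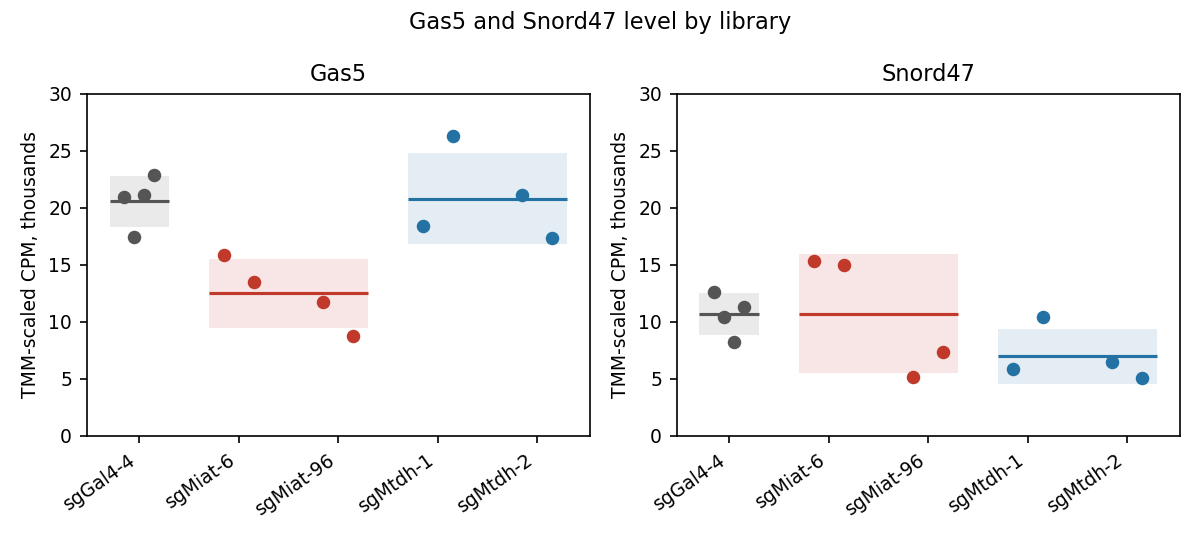
TMM-scaled level of Gas5 (left) and of Snord47, the snoRNA in its intron (right), in units of 1000 CPM. Points are libraries by guide, lines are the means of the 4 libraries of a group and bands their SD. Gas5 is below all controls in the 4 libraries labelled Miat, while Snord47 is above the controls with sgMiat-6 and below them with sgMiat-96, with sgMtdh-2 and in library 1-1.

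Between the libraries labelled Miat and the control, the Gas5 log2 fold change was -0.72 (SE 0.25, 95% interval -1.21 to -0.24), or 1.65 times lower, with an adjusted p of 0.0683 in the quasi-likelihood test of edgeR, adjusted by Benjamini and Hochberg over 143 symbols. Of all symbols, 14% passed the threshold of 0.05 in this comparison, and 0 of the 2 host genes with enough counts did. At an unadjusted p below 0.05, 36 of the 143 symbols passed, Gas5 among them at 0.0105. The Gas5 call depended on the setting: it passed in 14 of 30 alternative settings, among them DESeq2 (adjusted p 0.00816) and limma-voom (adjusted p 0.0379), with adjusted p-values of 0.00135 to 0.531 over all 30 and the same direction in each. Without the sgMiat-6 libraries the edgeR log2 fold change was -0.99 (adjusted p 0.0225), and without the sgMiat-96 libraries it was -0.62 (adjusted p 0.179). The median change of all tested symbols was 0.20, and the Gas5 value minus that median was -0.92 on the log2 scale. When libraries were scaled by their totals alone, Rn45s included, the median moved to -0.65, Gas5 to -1.52, and their difference to -0.87.

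For the libraries labelled Mtdh against the control, the log2 fold change was 0.02 (SE 0.25, 95% interval -0.47 to 0.50) with an adjusted p of 0.975 by the same edgeR test, and its sign turned in 18 of 30 alternative settings. In this comparison 9.79% of symbols passed, and 0 of the 2 tested host genes, also at an unadjusted p below 0.05 and with DESeq2 or limma-voom. Directly between the targets, Gas5 was 0.74 higher on the log2 scale in the libraries labelled Mtdh than in those labelled Miat (95% interval 0.25 to 1.22), with an edgeR adjusted p of 0.108. Here 3.5% of symbols passed and 0 of the 2 host genes, with Gas5 at an unadjusted p of 0.00923 in edgeR, and Gas5 passed in 4 of 30 alternative settings, DESeq2 among them (adjusted p 0.0139). Both comparisons with the control share its libraries.

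By guide, sgMiat-96 was the only guide for which Gas5 passed against the control in edgeR with TMM factors. Its log2 fold change was -1.003 (95% interval -1.47 to -0.54, adjusted p 0.00677), in a comparison where 19.6% of symbols passed. Without library 96-2 it was -0.95 and no longer passed (adjusted p 0.152), nor did it with no filter on low counts (adjusted p 0.331). For sgMiat-6 it was -0.48 (adjusted p 0.152), where 25.9% of symbols passed, and with library totals -1.25, which passed (adjusted p 0.0126). Between sgMiat-96 and sgMiat-6 the difference was -0.52 (95% interval -1.04 to -0.0018, adjusted p 0.182) in the same edgeR fit, where 23.1% of symbols passed. The normal interval leaves out 0, but the unadjusted edgeR p was 0.0687, so the guides were not shown to differ in Gas5.

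Neither Mtdh guide passed for Gas5 with TMM factors, while with library totals sgMtdh-2 did (log2 fold change -1.0002, edgeR adjusted p 0.0168). The Gas5 log2 fold change was 0.12 for sgMtdh-1 (95% interval -0.32 to 0.57, edgeR adjusted p 0.817), where 12.6% of symbols passed. For sgMtdh-2 it was -0.10 (95% interval -0.55 to 0.35, edgeR adjusted p 0.784), where 14.7% passed. Between these guides it was -0.22 (edgeR adjusted p 0.774), where 0% of symbols passed and 17 of 143 had an unadjusted p below 0.05.

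Snord47, the C/D box snoRNA in a Gas5 intron, had its highest levels with sgMiat-6 and lay below the controls with sgMiat-96 and in 3 of the 4 libraries labelled Mtdh. It was counted 594, 763, 561 and 969 times in control libraries 1 to 4. With sgMiat-6 it was counted 2096 and 1534 times and with sgMiat-96 418 and 361 times. The sgMtdh-1 libraries had 145 and 1249 counts of it, those of sgMtdh-2 610 and 160. On the TMM scale the sgMiat-6 libraries, at 15353 and 14995 CPM, lay above the controls at 8267 to 12654 CPM, and the sgMiat-96 libraries, at 5150 and 7384 CPM, lay below them. The share of all symbols with no overlap was not counted for single guides, so these positions are a description. The sgMtdh-1 libraries stood at 5886 and 10424 CPM and the sgMtdh-2 libraries at 6496 and 5037 CPM, below the controls except for 1-2.

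Over the 4 libraries labelled Miat, Snord47 had a log2 fold change of 0.01 (SE 0.36, edgeR adjusted p 0.982), and over the 4 labelled Mtdh one of -0.61 (SE 0.36, edgeR adjusted p 0.324). By guide it did not pass against the control in edgeR: the log2 fold change was 0.51 for sgMiat-6 (adjusted p 0.177), -0.77 for sgMiat-96 (adjusted p 0.0766), -0.38 for sgMtdh-1 (adjusted p 0.431) and -0.88 for sgMtdh-2 (adjusted p 0.0502). Between sgMiat-96 and sgMiat-6 the log2 fold change was -1.28 (SE 0.32), which passed the edgeR test with an adjusted p of 0.00923. In that comparison 23.1% of all symbols passed. Of the 11 snoRNAs inside the host genes for which an entry was found, 4 had enough counts for a test: Snord47, Snora74a, Snora16a and Snord99. None of these 4 passed in edgeR for either target against the control, with adjusted p-values of 0.547 to 0.975 for those other than Snord47 and an unadjusted p below 0.05 for 0 of the 4. The log2 fold changes of Snora74a, Snora16a and Snord99 ran from 0.20 to 0.45 for the libraries labelled Miat and from 0.03 to 0.51 for those labelled Mtdh.

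The ratio of Gas5 to Snord47 within a library does not depend on how libraries are scaled. Gas5 counts may hold reads of the snoRNAs in its longest exon, so the ratio need not be one of host to snoRNA. The log2 value of the ratio, with 0.5 added to each count, was 0.72, 0.74, 1.35 and 1.02 in control libraries 1 to 4. It was 0.05 and -0.15 with sgMiat-6, and 1.18 and 0.25 with sgMiat-96. The sgMtdh-1 libraries were at 1.64 and 1.33, those of sgMtdh-2 at 1.70 and 1.78. Library 96-1 lay among the controls and the other 3 labelled Miat below them, while of those labelled Mtdh only 1-2 fell below the highest control.

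The log2 ratio averaged 0.96 ± 0.29 (SD, n = 4) in the control, 0.33 ± 0.59 with Miat guides and 1.61 ± 0.19 with Mtdh guides. The difference from the control was -0.62 for the libraries labelled Miat, and a two-sided exact permutation test gave p = 0.114. It was 0.66 for those labelled Mtdh, and the same exact test gave p = 0.0571. This test treats single libraries as exchangeable, while those of a target come from different guides and the controls from a single guide. The smallest p that 4 against 4 libraries can give is 0.0286, and after adjustment over the 4 ratio tests made, with 1810032O08Rik the other host, both exact p-values were 0.229. All 4 libraries labelled Mtdh lay above all 4 labelled Miat, a difference that was not tested.

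**Figure D4:**
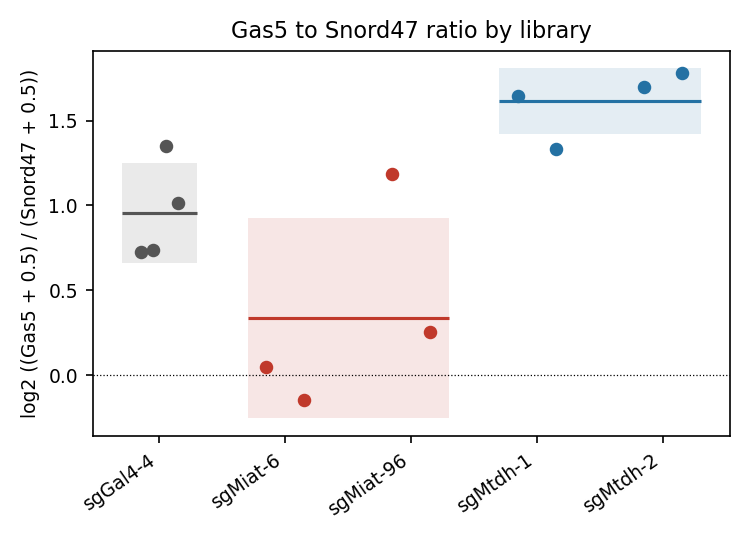
Log2 ratio of Gas5 to Snord47 counts, 0.5 added to each, by guide. Points are libraries, lines the means of the 4 libraries of a group, bands their SD and the dotted line equal counts. Libraries labelled Mtdh range from 1.33 to 1.78 and those labelled Miat from -0.15 to 1.18.

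Snhg8, the host of Snora24, was the other gene with enough counts for a test. Its entry covers chr3:123507552-123508336 on the minus strand, 785 bases and a single exon. It was counted 5, 2, 11 and 7 times in control libraries 1 to 4. With sgMiat-6 it was counted 16 and 24 times and with sgMiat-96 16 and 6 times. The sgMtdh-1 libraries had 0 and 22 counts of it, those of sgMtdh-2 4 and 5. In scaled terms the groups overlapped, at 27.4 to 162 CPM in controls, 117 to 235 CPM in those labelled Miat and 0 to 184 CPM in those labelled Mtdh.

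The Snhg8 log2 fold change was 0.84 for the libraries labelled Miat (95% interval -0.52 to 2.21, edgeR adjusted p 0.4659). For those labelled Mtdh it was 0.14 (95% interval -1.29 to 1.57, edgeR adjusted p 0.931), with its sign turned in 9 of 26 alternative settings. Both intervals include 0 and are wide. Snora24 lies whole within the Snhg8 entry, so the values may hold reads of the snoRNA as well as of its host.

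The other 7 genes had 2 to 30 counts each over all 12 libraries, too few to be tested, and rates below are counts summed over the 4 libraries of a group per 1000000 counts outside Rn45s, with 95% exact Poisson intervals. Intervals, and the limit of 3 counts used where a count is 0, cover counting error only. Snhg1, host of a row of C/D box snoRNAs, was counted 1 time in control libraries, 3 times in those labelled Miat and 19 times in those labelled Mtdh. Its rate was 11.9 (0.301 to 66.2), 26.4 (5.44 to 77.0) and 217 (130 to 338) per 1000000. The 19 counts came as 2 and 10 from sgMtdh-1 libraries, then 1 and 6 from sgMtdh-2.

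Snhg3 was counted 0 times in control libraries and in those labelled Miat, and 0, 4, 1 and 2 times in libraries 1-1, 1-2, 2-1 and 2-2. That is 79.8 per 1000000 (32.1 to 164) for the libraries labelled Mtdh, against limits of 35.6 and 26.4 per 1000000 from 3 counts. The 95% exact Poisson intervals of the control and of the libraries labelled Miat reach 43.8 and 32.4 per 1000000, and both overlap that of the libraries labelled Mtdh. Snhg7 went the other way, with 6 counts in control libraries, 1 in those labelled Miat and 0 in those labelled Mtdh. The 6 counts came from controls 2 and 3 with 4 and 2, a rate of 71.2 per 1000000 (26.1 to 155).

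In edgeR with no filter on low counts, a setting that lets these genes in, Snhg1 had an unadjusted p of 0.0146 for the libraries labelled Mtdh against the control, Snhg7 0.0440 and Snhg3 0.0480. In that fit 102 of 1666 symbols (6.12%) had an unadjusted p below 0.05. The adjusted p was 0.597 for each of these 3 genes, so none passed. The neural marker counts and the depth of the libraries also differed between these groups, and their part in these rates was not tested.

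Snhg5 had 8 counts in control libraries, 5 in those labelled Miat and 17 in those labelled Mtdh, with intervals of 41.0 to 187, 14.3 to 103 and 113 to 310 per 1000000. All 5 counts labelled Miat came from sgMiat-96. Snhg6, host of Snord87, had 6, 9 and 6 counts in the same order, or 71.2 (26.1 to 155), 79.1 (36.2 to 150) and 68.4 (25.1 to 149) per 1000000. Snhg4 had 4 counts and Snhg12 had 2 over all libraries, and no difference was detectable for them at this depth.

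**Figure D5:**
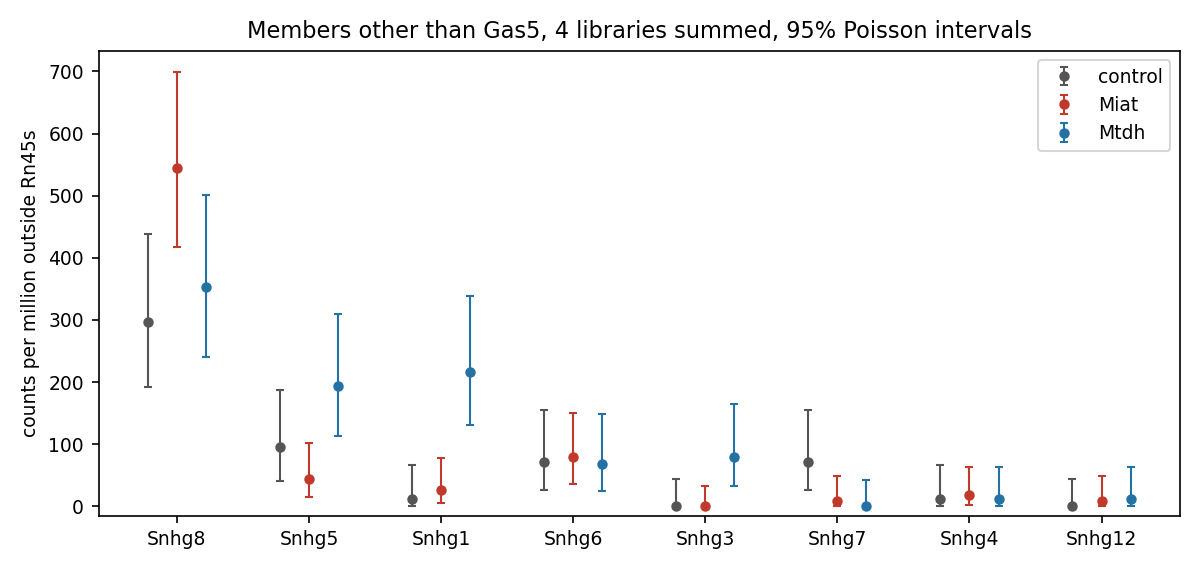
Counts per 1000000 outside Rn45s of the 8 host genes other than Gas5, summed over the 4 libraries of each group. Points are rates and bars 95% exact Poisson intervals, which cover counting error only. Snhg8 reaches 545 per 1000000 in the libraries labelled Miat, and Snhg1 217 in those labelled Mtdh.

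Another non-coding host, 1810032O08Rik, was the only tested one outside the set. It did not pass in edgeR for either target against the control, with log2 fold changes of -0.12 (adjusted p 0.867) and 0.02 (adjusted p 0.975). For sgMiat-96 against the control it was -1.19 (edgeR adjusted p 0.0362), beside -1.003 for Gas5, and between sgMiat-96 and sgMiat-6 it was -1.66 (edgeR adjusted p 0.00889). Of all symbols, 19.6% and 23.1% passed in these comparisons. Snord1a lies in an exon of this host, which had 931 counts against 920 for Snord1a. In the same comparisons Snord1a changed by -1.30 (edgeR adjusted p 0.0217) and -1.77 (edgeR adjusted p 0.00626). The values of 1810032O08Rik may thus be those of the snoRNA, and how much comes from the host itself was not tested.

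By Pearson correlation of the log2 level over the 12 libraries, the symbols most like Gas5 were Snord19 (r = 0.92), Snord15a (r = 0.75) and Mir30d (r = 0.75). The first 2 are C/D box snoRNAs and the third is a miRNA precursor. The 12 points share their libraries and the scaling factors, and fall into 3 groups, so the values are a description.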

How the data were processed

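Small RNA libraries from 12 samples were analysed. The authors deposited raw counts per RefSeq non-coding transcript (4529 entries), per the file headers, with FPKM values that the authors scaled per kilobase and 1000000 counts; the FPKM were used here only for the transcript lengths they imply, whole within 0.001 for 100% of entries with counts. The submitters' processing notes name STAR, GRCm38 and mm10. The sources used here do not name the counter or how it treated strand and multiply mapped reads. Identical repeated entries (172) were counted once and differing entries of a symbol summed. Tests across symbols used edgeR 4.0.16 under R 4.3.3 (TMM factors 0.589 to 1.61, filterByExpr by group with minimum count 10, quasi-likelihood fit over all libraries, Benjamini-Hochberg at 0.05), once with 1 term per group and once with 1 term per guide. The common dispersion was 0.250. The procedure was tested on simulated data with that dispersion, independent libraries and no differences between guides. That simulation does not cover the spread within and between guides in these libraries. Intervals of fold changes are normal 95% intervals, which can leave out 0 where the unadjusted edgeR p is above 0.05. Exact permutation tests used scipy 1.17.1. Hosts and snoRNAs were placed with RefSeq and GENCODE annotation of GRCm38. Genes named are all 10 host genes, up to 3 snoRNAs inside each, other tested non-coding hosts, the 3 symbols most like Gas5, and Rn45s. Other snoRNAs inside Gas5 were named for their position or sequence, and Dancr, Snora26, Snord1a, Snord1b and Snord1c were added after their values were seen. The members and lists were chosen with earlier results of these data known. Libraries of a guide differed by more than sampling noise.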

Additional observations from a re-analysis of the deposited data

How the results depend on the processing

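The settings were chosen as alternatives to the edgeR test, and the cause of each change was not tested unless the setting itself shows it. For the libraries labelled Miat against the control, 1 host gene (Gas5) passed instead of 0 in 14 of 30 settings. The Gas5 log2 fold change was then -0.76 with DESeq2 size factors (adjusted p 0.0386), -0.85 with upper-quartile factors (0.0188), -1.52 with library totals (0.00135), -0.71 with totals without Rn45s (0.0454), -0.82 with a minimum count of 20 (0.0131), -0.76 with DESeq2 (0.00816), -0.71 with limma-voom (0.0379), -0.72 with a robust fit (0.0468), -0.94 with only the groups compared (0.0145), -0.74 with 1 term per guide (0.00807), -0.99 without sgMiat-6 (0.0225) and -0.94 without sgMtdh-1 (0.0307). Leaving out each library gave -0.97 to -0.67 and 0 to 1 host genes, with Gas5 passing without Mtdh 1-2 or Mtdh 2-2. The remaining settings, which include no filter (-0.81, adjusted p 0.531), did not pass, and the direction held in all 30.

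For the libraries labelled Mtdh against the control, the Gas5 log2 fold change turned to -0.017 with upper-quartile factors, -0.76 with library totals, -0.050 with totals without Rn45s, -0.22 with no filter, -0.0092 with a minimum count of 20, -0.19 with the highest entry of each symbol, -0.011 without sgMiat-6, -0.20 without sgMiat-96 and -0.51 without sgMtdh-1. Leaving out each library gave -0.38 to 0.052. Snhg8 turned to -0.69 with library totals, -0.070 with no filter, -0.00027 with the highest entry, -0.024 without sgMiat-96 and -0.50 without sgMtdh-1, and ranged from -0.79 to 0.43 with each library left out. None of these passed in edgeR (0.0512 was the lowest adjusted p, for Gas5 with library totals).

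Between the targets, 1 host gene (Gas5) passed at 0.83 with upper-quartile factors, 0.81 with a minimum count of 20, 0.81 with DESeq2 and 0.76 with 1 term per guide. By guide, library totals let Gas5 pass for sgMiat-6 (-1.25) and sgMtdh-2 (-1.0002), 1 host gene each, and turned sgMtdh-1 to -0.56. With no filter, 0 host genes passed for sgMiat-96. Leaving out each library gave Gas5 -1.35 to -0.95 and 0 to 1 host genes for sgMiat-96, -0.34 to 0.32 for sgMtdh-1, and -0.90 to -0.31 and 0 to 1 host genes between sgMiat-96 and sgMiat-6. There Gas5 passed without control 3, and a guide left with 1 library was assumed to vary like the others. With library totals the median change of all symbols was -0.65 for Miat and -0.83 for Mtdh, against 0.20 and -0.01.

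Library totals and libraries labelled Miat gave 5 higher and 24 lower symbols against 15 and 5 with TMM. Libraries whose names end in the same number were compared in 16 pairs. Correlations of their deviations from group means were -0.30 to 0.40, 4 exceeded 0.1, and 2 of 10 libraries correlated best with their own number. Group means mix the guides of a target, so whether the last numbers pair libraries was not settled. With these numbers as a replicate block, the Gas5 log2 fold change was -0.62 (adjusted p 0.471) for Miat, and no call for a host gene changed in the 3 comparisons of groups. A setting chosen after seeing the data, without the separate entries of snoRNAs inside hosts, changed no call. It left the host entries as they were, so it cannot show what snoRNA reads within them contribute. The ratio tests changed no call with a pseudocount of 1 or a library left out, and leaving out the most abundant snoRNA could not be run for Gas5, which has 1. Depth limits the other genes: 3 counts stand for 26.4 to 35.6 per 1000000 counts outside Rn45s in a group.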
